A study of Rattus norvegicus with 8 samples.

Results

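The genes described here are 9 components and regulators of complement (C1r, C1s, Serping1, C4a, C4b, C2, C3, Cfb and Cd59), taken by symbol from a table of raw counts for 28546 gene entries. All 9 are in the table, and all 9 passed the filter on low counts, as members of the 14445 genes tested. The 8 RNA-seq libraries were made from cultured astrocytes taken from pups of the Sprague Dawley rat strain. For sh-APP (n = 3), the 12-273 BM melanoma cells expressed a short hairpin targeting APP, which encodes amyloid precursor protein. For anti-Abeta (n = 3), the melanoma cells had a scrambled hairpin, and amyloid beta was targeted with an antibody. For control (n = 2), the scrambled hairpin was used with no such antibody named. 12-273 BM is a culture derived from a human melanoma brain metastasis. All groups share exposure of astrocytes to melanoma cells or their medium for 24 h, so no group shows astrocytes without melanoma. The labels describe the exposure both as a co-culture and as conditioned medium. Whether replicates are independent cultures or animals is not stated, so each p-value reflects only how far these libraries vary, which may be technical. The study asks how melanoma-derived amyloid beta acts on astrocytes.

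Complement is a cascade of proteases and cleavable proteins that tags targets and can open their membranes. In the classical pathway C1q binds a target, C1r activates C1s, and C1s cleaves C4 and C2, which together form an enzyme that cleaves C3. In the alternative pathway factor B (Cfb) pairs with cleaved C3 to form a second such enzyme and amplify the deposit. Serping1 blocks C1r and C1s, and CD59 stops the membrane pore at the end of the cascade. Astrocytes are a local source of C3 and of early classical components in the brain, while microglia are the main source of C1q, and complement is known for tagging synapses for removal.

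Of the 9 genes, 7 were higher in sh-APP than in control and none was lower in edgeR's quasi-likelihood test (8 higher and 0 lower at an unadjusted p under 0.05, and 7 higher and 0 lower with DESeq2 and with limma-voom). Among all 14445 tested genes 25.8% passed as higher in that comparison and 27.9% as lower. The fold changes of the 7 ran from 1.59-fold (Serping1) to 2.82-fold (C3). The median log2 fold change of the 9 genes was 0.96, against 0.03 over all tested genes, 53.7% of which were called in one direction or the other. Between anti-Abeta and control, edgeR called 0 of the 9 in either direction, and none had an unadjusted p under 0.05. DESeq2 and limma-voom also called 0 there, while 29.2% of the tested genes were called (12.7% higher, 16.6% lower). Between sh-APP and anti-Abeta, 8 of the 9 were called higher and 0 lower, against 10.1% and 16.0% of all tested genes (26.1% in all). That last comparison tests the difference between the arms directly and uses no control level. These counts over the list carry no test of their own, and the 9 genes were chosen with earlier results of these data known. In bulk samples more RNA per cell and more cells of a type cannot be told apart.

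Levels are in CPM, each gene's share of its library's counts on a per-million basis, scaled by TMM factors that correct for differences in RNA composition between libraries. Libraries held 34250464 to 47831595 counts. Anti-Abeta replicate 2 stood furthest from its group: set against counting noise, its pairs gave 31.8 and 46.9 for chi-square over degrees of freedom, and the other pairs within groups 17.4 to 20.9. App, whose human counterpart is the hairpin's target in the melanoma cells, averaged 612 ± 31.7 CPM in sh-APP (SD, n = 3), 539 ± 32.3 in anti-Abeta (n = 3) and 573 ± 19.8 in control (n = 2). This astrocyte transcript does not measure the knockdown. The 9 astrocyte markers summed to between 16870 and 19350 CPM in sh-APP, 13780 and 14770 in anti-Abeta and 15690 and 16040 in control, and all were detected in each group. In sh-APP against control 6 of them were called higher and 1 lower, beside 25.8% and 27.9% of all tested genes. Gfap, the filament gene of reactive astrocytes, averaged 6532 ± 893 CPM in sh-APP (SD, n = 3) and 2911 ± 19.4 in control (n = 2), and Gja1, a gap junction gene, 2146 ± 160 in sh-APP and 3682 ± 242 in control. The mean difference in Gfap was larger than that in the astrocyte marker sum, so the higher sum in sh-APP than in control rested on Gfap. The 9 microglia or macrophage markers in the table summed to between 11.1 and 13.7 CPM in sh-APP, 12.7 and 22.3 in anti-Abeta, and 12.2 and 15.8 in control, with 1, 1 and 3 of the 9 at 0 in those groups. Cd68, a lysosomal protein gene, gave most of that sum. The other 8 markers, a sum chosen after the values were seen, came to 1.62, 2.21 and 2.22 CPM in sh-APP, 1.51, 1.57 and 1.65 in anti-Abeta, and 0.806 and 0.540 in control. This small sum was higher in both arms than in control, and the arms overlapped. Of the 4 tested markers of the list, 1 (Tyrobp, an adaptor of microglial receptors) was called higher in sh-APP against control, near the 25.8% of all tested genes. Its log2 fold change was 2.84 ± 0.79 (SE; edgeR adjusted p = 0.00881), at 20, 33 and 29 raw counts in sh-APP against 5 and 1 in control. Cd68 was not called there (-0.36 ± 0.23, adjusted p = 0.208). In sh-APP against anti-Abeta, Cd68 was the 1 of the 4 called, lower by 0.63 ± 0.21 (adjusted p = 0.0402), beside 16.0% of all tested genes. The part of microglia in the complement results below was not tested.

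**Figure D1:**
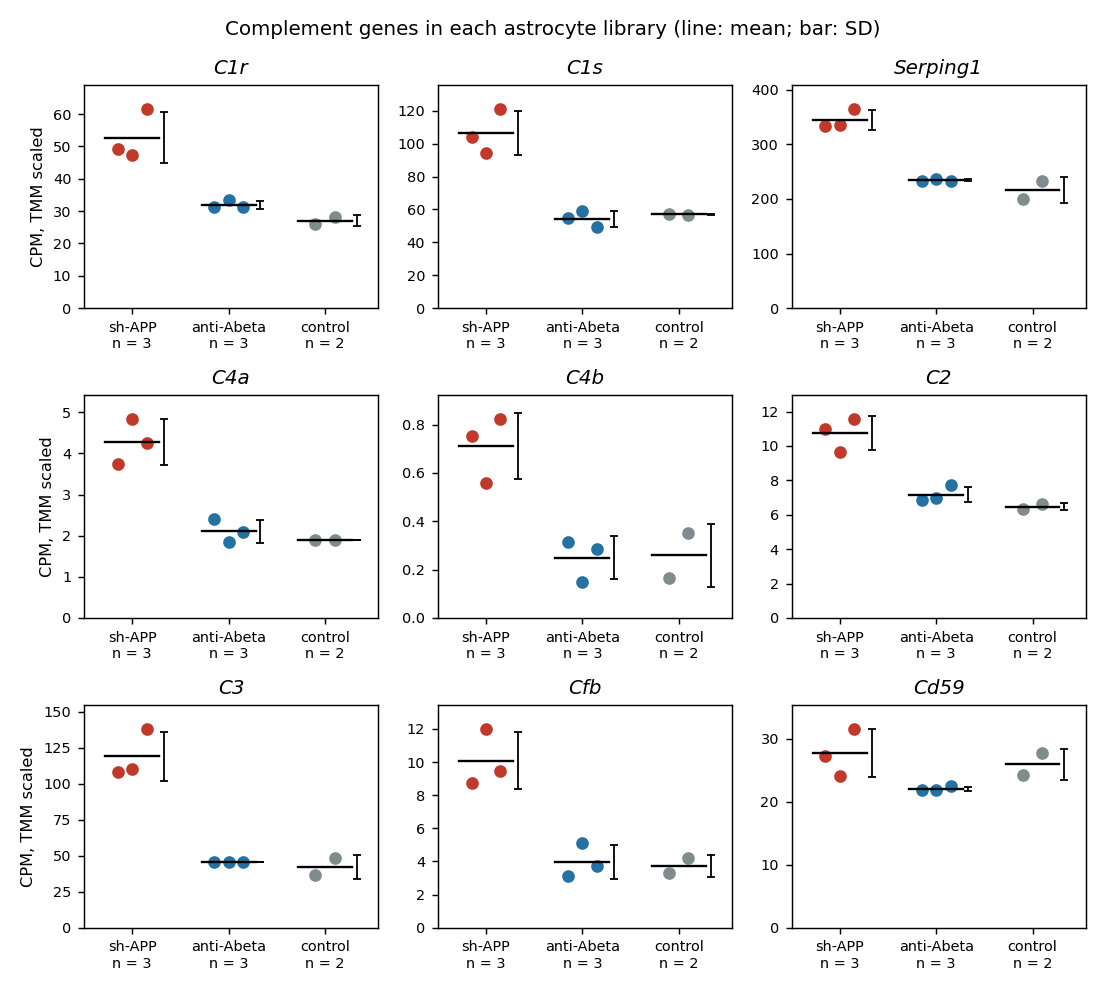
Level of each complement gene in every library, in CPM after TMM scaling (y axis, from 0), for sh-APP, anti-Abeta and control (x axis). Points are libraries, lines are group means and bars are SD. For 8 genes every sh-APP library lies above both control libraries, and for Cd59 sh-APP and control overlap while every anti-Abeta library lies below both.

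C1r encodes the protease that activates C1s. It had 49.3, 47.3 and 61.6 CPM in sh-APP replicates 1 to 3, 31.3, 33.4 and 31.2 in anti-Abeta, and 25.9 and 28.2 in control. The 3 groups did not overlap, with sh-APP highest and control lowest. C1r rose in sh-APP by 0.96 ± 0.12 (log2, SE) against control (edgeR adjusted p = 3.95e-05) and by 0.72 ± 0.10 against anti-Abeta (adjusted p = 0.00105). Against control the anti-Abeta value was 0.24 ± 0.12 (adjusted p = 0.152), which did not pass. C1r overlaps a long non-coding RNA gene in RefSeq, and its counts may include reads of that gene.

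The 250 bases before the start of C1r are printed because a search for 4 motifs found a match there (RefSeq, build GRCr8, chr4:159098763-159099012, plus strand). The motifs, searched on both strands, were C/EBP TTGCNNAA, STAT TTCNNNGAA and a single pattern each for NF-kB and IRF. Capitals mark the match, a C/EBP motif on the minus strand, 83 to 76 bases before the start.
C1r promoter: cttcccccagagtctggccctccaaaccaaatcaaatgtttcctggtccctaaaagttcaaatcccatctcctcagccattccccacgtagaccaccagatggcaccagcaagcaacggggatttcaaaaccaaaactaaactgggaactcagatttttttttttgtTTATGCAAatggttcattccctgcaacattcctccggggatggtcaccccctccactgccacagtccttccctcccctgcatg
Of 33469 windows of this length before RefSeq gene starts, 9.22% hold the C/EBP motif, 7.67% the STAT, 3.41% the IRF and 1.3% the NF-kB motif. The match describes letters in the window and is not a measured binding site. RefSeq windows were at hand for 4 of the 9 genes (C1r, C3, C4a and C4b).

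C1s encodes the protease that cleaves C4 and C2. It had 104, 94.4 and 121 CPM in sh-APP, 54.9, 59.0 and 49.2 in anti-Abeta, and 57.2 and 56.8 in control. All 3 sh-APP libraries lay above the other 5, and the anti-Abeta libraries lay on both sides of control. C1s rose by 0.97 ± 0.10 (log2, SE) against anti-Abeta (adjusted p = 0.000231, edgeR), beside 0.90 ± 0.11 against control. For anti-Abeta against control the log2 fold change was -0.07 ± 0.11, with a 95% interval of -0.31 to 0.17.

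Serping1 encodes the C1 inhibitor, which inactivates C1r and C1s. It had 333, 335 and 365 CPM in sh-APP, 234, 237 and 233 in anti-Abeta, and 199.998 and 233 in control. The sh-APP libraries were again above all others, and control replicate 2 was level with the anti-Abeta libraries. Serping1 rose by 0.55 ± 0.07 (log2, SE) against anti-Abeta (adjusted p = 0.000717, edgeR), beside 0.67 ± 0.08 against control. For anti-Abeta it was 0.11 ± 0.08 against control, with a 95% interval of -0.06 to 0.29.

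C4a and C4b encode C4, the substrate of C1s, in near-identical gene copies. C4a had raw counts of 164, 226 and 186 in sh-APP, 84, 75 and 103 in anti-Abeta, and 68 and 70 in control. C4b had raw counts of 33, 26 and 36 in sh-APP, 11, 6 and 14 in anti-Abeta, and 6 and 13 in control. In both genes every sh-APP library was above the other 5 on the CPM scale. C4a rose in sh-APP by 1.18 ± 0.24 (log2, SE) against control (edgeR adjusted p = 0.00121) and by 1.02 ± 0.21 against anti-Abeta (adjusted p = 0.00433). C4b had log2 fold changes of 1.44 ± 0.63 (adjusted p = 0.0727) and 1.51 ± 0.55 (adjusted p = 0.0617), which did not pass. At its counts of 6 to 36 the 95% interval for sh-APP against control was 0.07 to 2.82.

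Reads that fit both C4 copies may have been dropped or divided between them, so each C4 level is uncertain. The summed C4 level avoids the division, though not the dropping: it was 4.493, 5.401 and 5.082 CPM in sh-APP, 2.71, 1.98 and 2.38 in anti-Abeta, and 2.06 and 2.24 in control. C4b gave 10.3% to 16.8% of the summed counts in sh-APP, 7.41% to 12.0% in anti-Abeta and 8.11% to 15.7% in control, so the groups overlapped in this share. The closeness of the copies extends to their promoters, where 95.9% of the aligned bases of the RefSeq windows are identical. The stretches below (build GRCr8, plus strand, chr20:4010177-4010276 for C4a and chr20:4201794-4201893 for C4b) show it, with differing bases in capitals.
C4a promoter: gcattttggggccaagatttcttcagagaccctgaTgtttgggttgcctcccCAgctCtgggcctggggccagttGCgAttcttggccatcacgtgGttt
C4b promoter: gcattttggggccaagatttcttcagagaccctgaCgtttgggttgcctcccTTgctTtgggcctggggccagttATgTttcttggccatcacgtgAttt
Of these 100 bases, 8 differ. None of the 4 motifs was found in the 250 bases before either start.

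C2 encodes the protease subunit that joins cleaved C4 in the classical C3-cleaving enzyme. It had 10.97, 9.65 and 11.6 CPM in sh-APP, 6.85, 6.97 and 7.70 in anti-Abeta, and 6.31 and 6.62 in control. The groups did not overlap, though anti-Abeta and control lay close together. C2 rose by 0.73 ± 0.15 on the log2 scale in sh-APP against control (adjusted p = 0.00145, edgeR) and by 0.58 ± 0.13 against anti-Abeta (adjusted p = 0.00818). Its anti-Abeta against control log2 fold change was 0.15 ± 0.15 (adjusted p = 0.487). C2 overlaps Zbtb12 in RefSeq, and whether reads of the overlap were assigned by strand is not known.

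C3 encodes the protein on which all complement pathways converge. It had 108, 110 and 138 CPM in sh-APP, 45.7, 45.5 and 45.9 in anti-Abeta, and 36.3 and 48.2 in control. All anti-Abeta libraries lay between the control libraries, far below sh-APP. C3 rose by 1.38 ± 0.11 on the log2 scale (2.605-fold) in sh-APP against anti-Abeta (adjusted p = 5.98e-05, edgeR), beside 1.49 ± 0.13 against control. Its log2 fold change ranked 140 of 14445 from the highest in sh-APP against anti-Abeta and 240 in sh-APP against control. In anti-Abeta against control it was 0.11 ± 0.13 (95% interval -0.17 to 0.39), rank 6173.

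The 250 bases before the start of C3 are printed for the same reason as those of C1r (RefSeq, build GRCr8, chr9:2201340-2201589, minus strand). Capitals mark a C/EBP motif on the coding strand, 104 to 97 bases before the start.
C3 promoter: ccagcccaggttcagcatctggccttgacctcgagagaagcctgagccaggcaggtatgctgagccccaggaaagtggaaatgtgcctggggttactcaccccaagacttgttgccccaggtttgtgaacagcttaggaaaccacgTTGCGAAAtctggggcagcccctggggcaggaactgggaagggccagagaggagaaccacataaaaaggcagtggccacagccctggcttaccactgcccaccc
No NF-kB, STAT or IRF motif was found by these patterns in this window.

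Cfb encodes factor B, the protease of the alternative C3-cleaving enzyme. It had 8.76, 12.0 and 9.43 CPM in sh-APP, 3.11, 5.09 and 3.71 in anti-Abeta, and 3.28 and 4.19 in control. The sh-APP libraries stood above the other 5, and anti-Abeta spanned the control values. Cfb rose by 1.43 ± 0.24 on the log2 scale (2.70-fold) in sh-APP against control (adjusted p = 0.000312, edgeR) and by 1.34 ± 0.21 against anti-Abeta (adjusted p = 0.00123). The anti-Abeta against control value was 0.09 ± 0.24, with a 95% interval of -0.43 to 0.61.

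Cd59 encodes a membrane-anchored protein that blocks assembly of the terminal pore. It had 27.4, 24.1 and 31.7 CPM in sh-APP, 21.9, 21.9 and 22.5 in anti-Abeta, and 24.3 and 27.7 in control. The sh-APP and control libraries overlapped, and the anti-Abeta libraries were below all others. Its log2 fold change was 0.09 ± 0.12 in sh-APP against control (95% interval -0.18 to 0.36; adjusted p = 0.563, edgeR) and -0.23 ± 0.12 in anti-Abeta against control (adjusted p = 0.179). Against anti-Abeta it rose by 0.32 ± 0.11 in sh-APP (adjusted p = 0.0485), a call that ended under 9 of 18 alternative settings. Among these were limma-voom (adjusted p = 0.0584) and leaving out any library except sh-APP replicate 2, with adjusted p from 0.0502 (without control replicate 1) to 0.207 (without sh-APP replicate 3, log2 fold change 0.22).

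**Figure D2:**
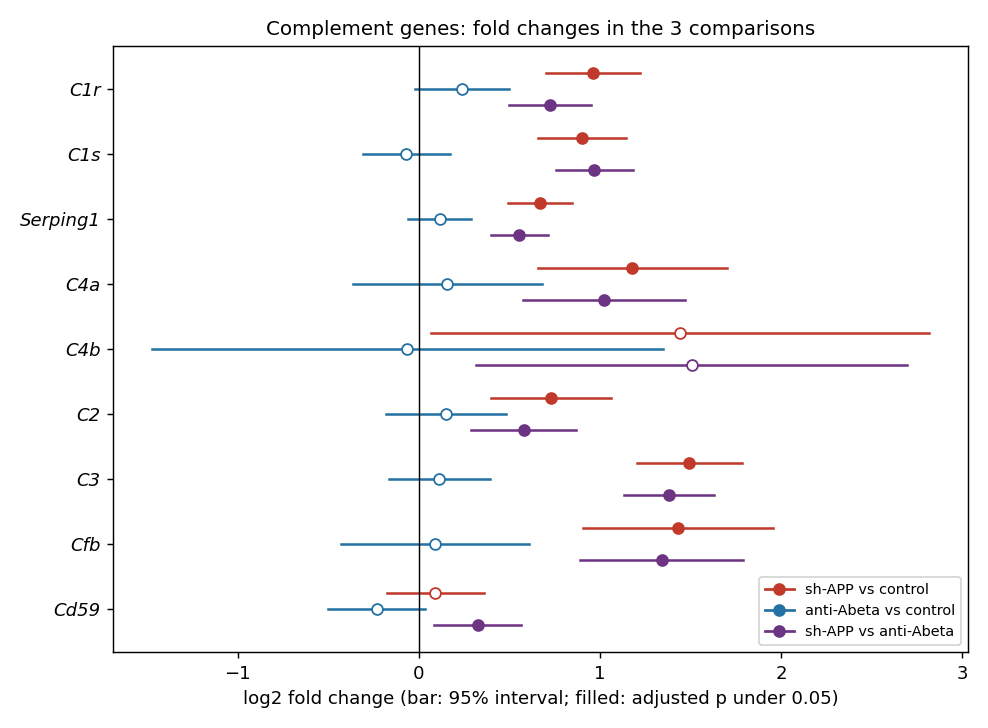
log2 fold change (x axis) of the 9 complement genes (y axis) for sh-APP or anti-Abeta set against control and for sh-APP set against anti-Abeta, with 95% intervals. Filled points passed at an adjusted p under 0.05. All anti-Abeta against control points are open and lie between -0.23 and 0.24.

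The highest library of a group was often the same for several genes. In sh-APP, replicate 3 held the highest level of 7 of the 9 genes and replicate 2 that of C4a and Cfb. In control, replicate 2 was higher than replicate 1 for 7 genes, and in anti-Abeta the highest values were spread as 2, 4 and 3 genes over replicates 1 to 3. In sh-APP against control 8 genes were higher without overlap, where 35.7% of all tested genes had every sh-APP library above both control libraries and 35.0% had every one below. In sh-APP against anti-Abeta 9 of 9 were higher without overlap, against 19.2% of all tested genes, with 22.1% lower in that way. In anti-Abeta against control 2 genes were higher without overlap (C1r and C2) and 1 lower (Cd59), against 27.9% and 27.0%.

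Ratios of raw counts between genes of the same library do not depend on how libraries are scaled. They are used only to compare libraries, since gene length is not divided out. The C3 to Serping1 ratio was 0.325, 0.329 and 0.379 in sh-APP, 0.196, 0.192 and 0.197 in anti-Abeta, and 0.182 and 0.207 in control. All sh-APP ratios were above the rest, so C3 rose more than the C1 inhibitor gene did. The log2 difference was 0.83 ± 0.11 (SE) against control (exact two-sided permutation p = 0.2, n = 3 and 2) and 0.82 ± 0.07 against anti-Abeta (exact p = 0.1, n = 3 and 3). These are the smallest p-values the sample sizes allow.

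The C1s to Serping1 ratio was 0.312, 0.282 and 0.332 in sh-APP, 0.235, 0.249 and 0.211 in anti-Abeta, and 0.286 and 0.243 in control. The sh-APP and anti-Abeta ratios did not overlap, with a log2 difference of 0.41 ± 0.10 (exact permutation p = 0.1), but sh-APP overlapped control, at 0.22 ± 0.13 (exact permutation p = 0.4). For C1r to Serping1 the log2 difference was 0.28 ± 0.11 in sh-APP against control (exact permutation p = 0.2) and 0.16 ± 0.08 against anti-Abeta (exact permutation p = 0.1), without overlap. Against anti-Abeta the nearest libraries were almost level (log2 ratios of -2.8245 and -2.8267), and without sh-APP replicate 3 the difference was 0.09. The Cfb to C3 ratio overlapped between all groups, and its mean log2 difference in sh-APP was -0.07 ± 0.26 against control (exact permutation p = 0.8) and -0.01 ± 0.29 against anti-Abeta (exact permutation p = 1). The Cd59 to C3 ratio was 0.253, 0.218 and 0.229 in sh-APP, 0.480, 0.482 and 0.490 in anti-Abeta, and 0.669 and 0.575 in control. It was lowest in sh-APP, with log2 differences of -1.41 ± 0.11 against control (exact permutation p = 0.2) and -1.06 ± 0.06 against anti-Abeta (exact permutation p = 0.1). In anti-Abeta it was also below control without overlap, by -0.36 ± 0.08 (exact permutation p = 0.2). Over the 15 ratio comparisons no Benjamini-Hochberg adjusted p was below 0.333.

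**Figure D3:**
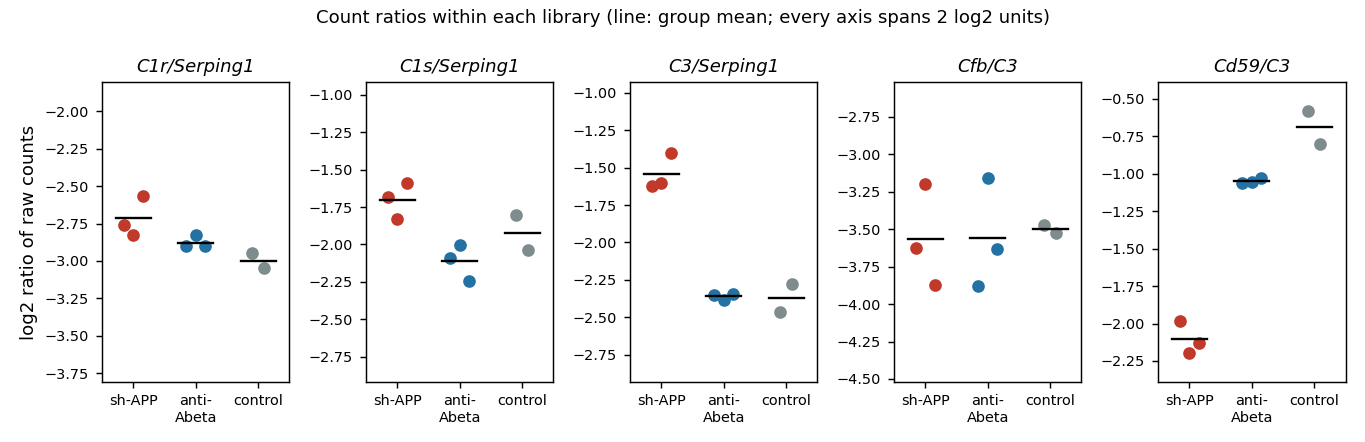
log2 ratio of raw counts between complement genes within each library (y axis, each spanning the same range) for sh-APP, anti-Abeta and control (x axis). Points are libraries and lines are group means. The C3 to Serping1 ratio is highest and the Cd59 to C3 ratio lowest in all sh-APP libraries, while the Cfb to C3 ratio overlaps between groups.

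The rest of the pathway was read from 7 lists by role, which hold 54 symbols, the 9 genes included. Of these, 52 are in the table and 26 were tested. The other 26 had at most 39 counts over all libraries, and 8 of them had none. Among the 17 tested genes outside the 9, 1 was called higher and 4 lower in sh-APP against control, 1 higher and 1 lower in anti-Abeta against control, and 1 higher and 1 lower in sh-APP against anti-Abeta. These shares are near or below those of all tested genes (25.8% higher and 27.9% lower, 12.7% and 16.6%, and 10.1% and 16.0%) and are no result about the list. Their median log2 fold changes were 0.11, 0.01 and -0.14, against 0.03, 0.03 and -0.01 over all tested genes.

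**Figure D4:**
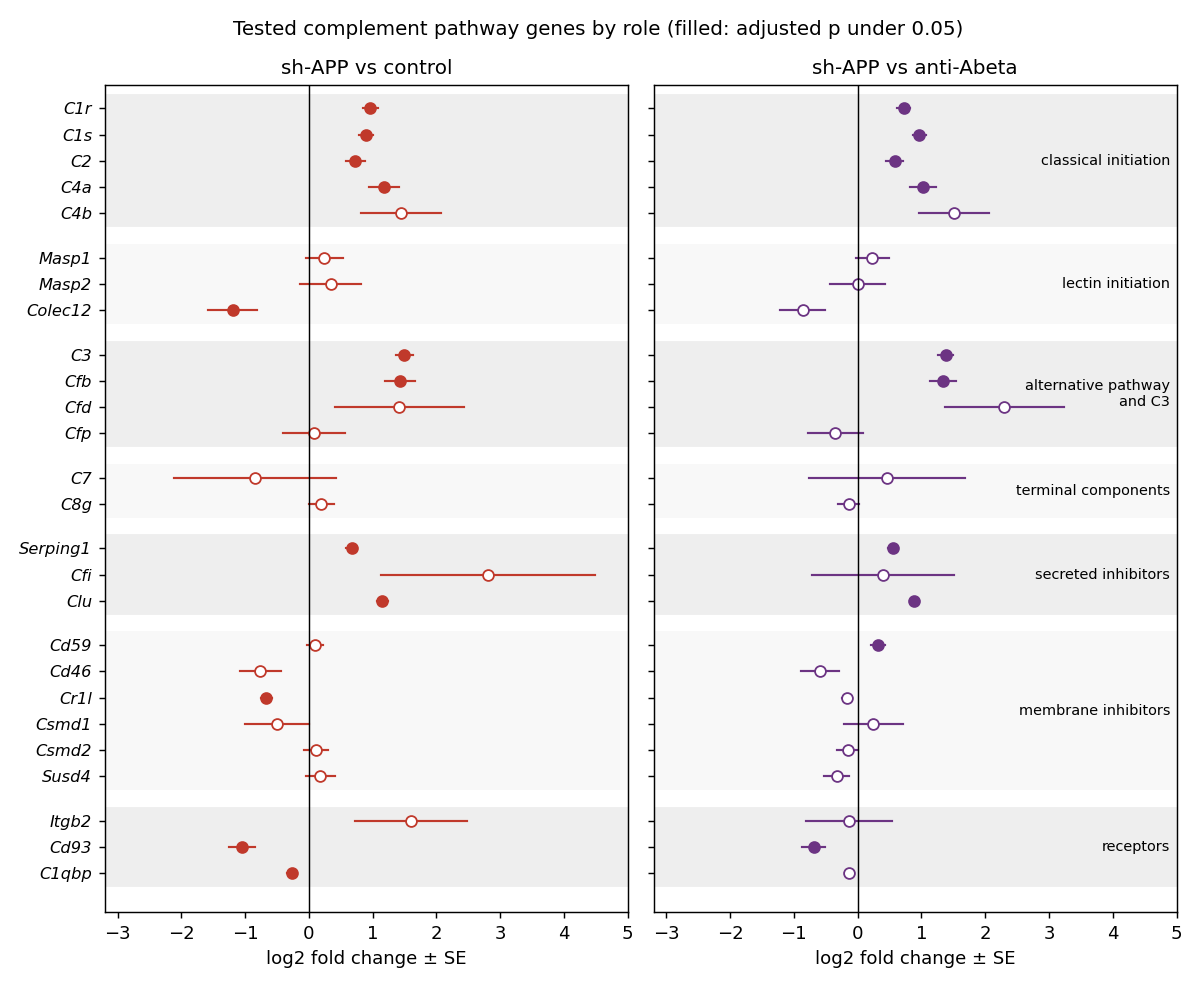
log2 fold change ± SE (x axis) of the 26 tested complement pathway genes (y axis, grouped by role) in sh-APP against control and sh-APP against anti-Abeta. Filled points passed at an adjusted p under 0.05. Filled points to the right are early classical genes, C3, Cfb, Serping1 and Clu in both comparisons, with Cd59 in the second, and those to the left include Cd93 in both and Cr1l in the first.

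Of the classical genes, the C1q chains were close to absent. C1qa had 4, 4 and 9 raw counts in sh-APP, 0, 3 and 0 in anti-Abeta, and 0 and 0 in control. C1qb had 4, 0 and 14 in sh-APP, 0, 0 and 2 in anti-Abeta, and 0 and 0 in control. C1qc had 5, 0 and 9 in sh-APP, 0, 0 and 0 in anti-Abeta, and 0 and 2 in control. The counts were highest in sh-APP replicate 3, and none of the chains passed the filter. A count of 0 in the control libraries allows a level of up to 0.0834 and 0.0810 CPM, and these limits cover counting error only. In microglia C1q is expressed with markers such as those of the microglia list above. Of these, Cx3cr1 had no count in any library, while Tyrobp was called higher in sh-APP against control. The C1q counts, at most 14 per chain in any library, were mostly in sh-APP. Whether they come from microglia was not tested.

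Of the lectin pathway, 3 of 9 genes were tested. Masp1 and Masp2, its proteases, had log2 fold changes of 0.24 ± 0.29 (SE) and 0.34 ± 0.48 in sh-APP against control, with adjusted p = 0.516 and 0.577 (edgeR). Colec12, whose locus overlaps a pseudogene and which encodes a membrane collectin acting as a scavenger receptor, fell by 1.19 ± 0.38 (adjusted p = 0.0199), at 0.662, 1.05 and 1.44 CPM in sh-APP against 1.70 and 3.11 in control. That call was lost without sh-APP replicate 1 (adjusted p = 0.0620) or control replicate 2 (log2 fold change -0.67, adjusted p = 0.278). Cfd and Cfp, factor D and properdin of the alternative pathway, were low (at most 1.19 CPM for Cfd in any library) and were not called in any comparison. Of the terminal components, C7 and C8g were tested and neither was called; C9, which forms the wall of the pore, had no count.

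Among the secreted inhibitors, Clu (clusterin, a chaperone that also binds terminal complexes) had 1721, 1527 and 1717 CPM in sh-APP, 910, 835 and 937 in anti-Abeta, and 732 and 759 in control. It rose by 0.89 ± 0.07 on the log2 scale in sh-APP against anti-Abeta (adjusted p = 5.16e-05, edgeR), beside 1.15 ± 0.08 against control. In anti-Abeta against control Clu rose by 0.26 ± 0.08 (adjusted p = 0.0296). That last call was lost without control replicate 1 (adjusted p = 0.204) or 2 (0.0872) or anti-Abeta replicate 1 (0.0783) or 3 (0.0978). Clu overlaps Scara3 and a pseudogene.

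Among the membrane inhibitors, Cr1l (Crry, which in rodents disables the C3-cleaving enzymes on the cell surface) had 88.9, 101 and 91.1 CPM in sh-APP, 97.6, 111 and 107 in anti-Abeta, and 153 and 145 in control. Both arms lay below control and overlapped each other. Cr1l fell in sh-APP by 0.67 ± 0.08 (log2, SE; edgeR adjusted p = 3.91e-05) and in anti-Abeta by 0.50 ± 0.08 (adjusted p = 0.00279), comparisons that share the control libraries. Between the arms the log2 fold change was -0.17 ± 0.08 (adjusted p = 0.127), so a difference between them was not shown. The calls of Cr1l against control held under every alternative run. Cr1l overlaps a long non-coding RNA gene. Cd46, Csmd1, Csmd2 and Susd4, the other tested membrane inhibitors beside Cd59, were not called in any comparison.

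Of the receptors 3 of 10 were tested, and Itgb2, an integrin chain shared by complement receptors, was not called. Cd93, a receptor once described as a C1q receptor, had 3.63, 4.99 and 5.29 CPM in sh-APP, 6.91, 8.34 and 7.21 in anti-Abeta, and 8.34 and 10.8 in control. It fell by 1.05 ± 0.20 (log2, SE) in sh-APP against control (adjusted p = 0.000708, edgeR) and by 0.69 ± 0.18 against anti-Abeta (adjusted p = 0.0153). The last call was lost without sh-APP replicate 1 (adjusted p = 0.0620) or anti-Abeta replicate 2 (0.0581). C1qbp, a largely mitochondrial protein that binds C1q heads, fell by 0.27 ± 0.07 in sh-APP against control (adjusted p = 0.00508), a call lost with library totals alone (adjusted p = 0.481) and without control replicate 1 (0.0586). C3ar1, the receptor for the C3a fragment, had 11, 8 and 6 raw counts in sh-APP, 2, 0 and 0 in anti-Abeta, and 0 and 0 in control. C5ar1, a receptor for C5a, had 0, 4 and 0 in sh-APP, 0, 8 and 23 in anti-Abeta, and 4 and 0 in control. Neither passed the filter on low counts. Most C3ar1 counts were in sh-APP, as were those of the C1q chains.

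Signals known to induce complement genes were read from a list of 13 receptors and transcription factors. In sh-APP against control 7 were called higher and 1 lower, in anti-Abeta against control 3 and 1, and in sh-APP against anti-Abeta 2 and 0. Over all tested genes the higher and lower shares were 25.8% and 27.9%, 12.7% and 16.6%, and 10.1% and 16.0%, so 3 of 13 and 2 of 13 higher lie near the background. The list's median log2 fold changes were 0.35, 0.19 and 0.09, against 0.03, 0.03 and -0.01 over all tested genes. Cebpb, a C/EBP transcription factor, had 151, 127 and 135 CPM in sh-APP, 97.7, 86.2 and 117 in anti-Abeta, and 72.0 and 67.2 in control. The 3 groups did not overlap. Cebpb rose by 0.98 ± 0.12 (log2, SE) in sh-APP against control (adjusted p = 3.39e-05, edgeR), by 0.46 ± 0.10 in sh-APP against anti-Abeta (adjusted p = 0.00778) and by 0.53 ± 0.12 in anti-Abeta against control (adjusted p = 0.00834). The last call was lost without control replicate 1 (adjusted p = 0.0722) or 2 (0.0676).

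Tnfrsf1a, a receptor for tumour necrosis factor, had 404, 357 and 399 CPM in sh-APP, 307, 311 and 308 in anti-Abeta, and 250 and 282 in control. It rose by 0.54 ± 0.08 (log2, SE) in sh-APP against control (adjusted p = 0.000133, edgeR) and by 0.33 ± 0.07 against anti-Abeta (adjusted p = 0.00624). Rela and Nfkb1, subunits of NF-kB, rose by 0.45 ± 0.08 and 0.39 ± 0.08 in sh-APP against control, and by 0.33 ± 0.08 and 0.32 ± 0.08 in anti-Abeta against control. The anti-Abeta calls of both were lost without control replicate 1 (adjusted p = 0.148 and 0.154). Cebpd, another C/EBP factor, and Stat3 and Irf1, which act downstream of cytokines, rose by 0.55 ± 0.12, 0.35 ± 0.07 and 0.35 ± 0.10 in sh-APP against control. Without control replicate 1 the calls of Cebpd (adjusted p = 0.0546) and Irf1 (0.0959) were lost. Between sh-APP and anti-Abeta, Rela, Nfkb1, Cebpd, Stat3 and Irf1 were not called (edgeR adjusted p = 0.284, 0.53, 0.116, 0.0595 and 0.471). Osmr, the oncostatin M receptor, fell by 0.40 ± 0.09 in sh-APP and by 0.26 ± 0.09 in anti-Abeta against control. Its calls ended with library totals alone (adjusted p = 0.0642 in sh-APP and 0.361 in anti-Abeta). In anti-Abeta the call was also lost without control replicate 1 (0.144) or 2 (0.186), anti-Abeta replicate 1 (0.116) or 3 (0.105), or sh-APP replicate 2 (0.0536).

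**Figure D5:**
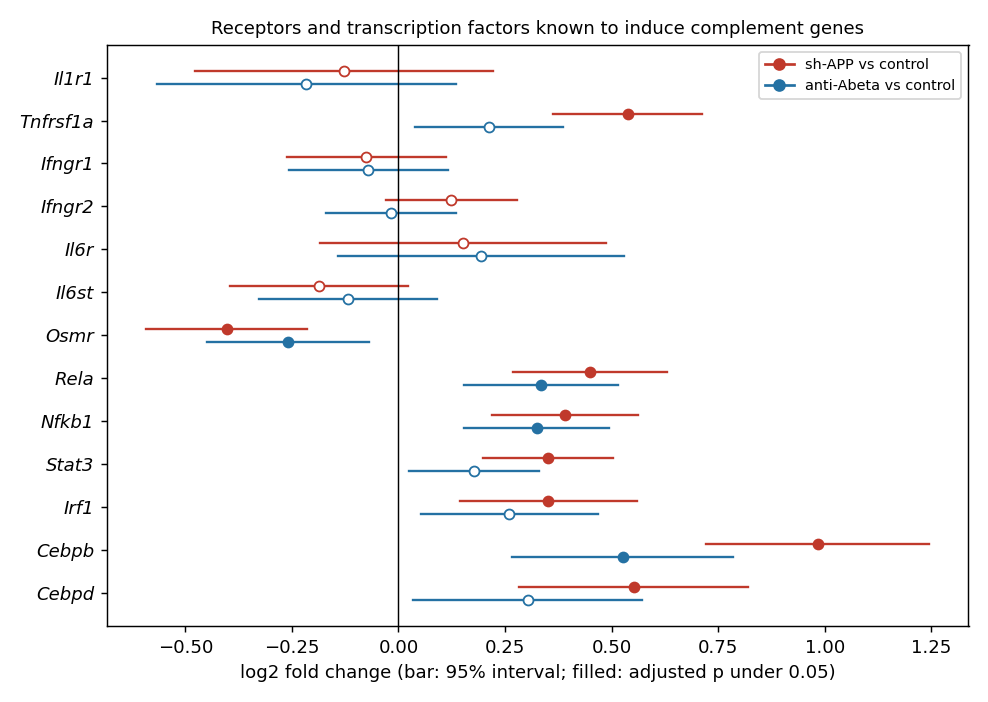
log2 fold change with 95% interval (x axis) of 13 receptors and transcription factors known to induce complement genes (y axis), in sh-APP against control and anti-Abeta against control, which share the control libraries. Filled points passed at an adjusted p under 0.05. Cebpb has the highest value in each comparison (0.98 and 0.53).

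The genes whose profile over the 8 libraries was most like that of C3 were found by the root mean square (RMS) difference of log2 CPM, each gene centred on its own mean, among 10093 genes with a mean of at least 5 CPM. The smallest differences were 0.17 for Caln1, 0.20 for Thrsp, 0.23 for Plec, 0.23 for Dcxr and 0.24 for Cldn19, against a median of 0.72. Caln1, a calcium-binding protein gene, averaged 22.4 ± 4.69 CPM in sh-APP (SD, n = 3), 8.31 ± 1.45 in anti-Abeta (n = 3) and 7.09 ± 0.16 in control (n = 2). Plec, which encodes the cytoskeletal linker plectin, averaged 99.8 ± 10.8, 50.5 ± 6.54 and 35.2 ± 2.26 CPM in the same groups. Of all pathway genes above 5 CPM, Cfb (RMS difference 0.2506, rank 8) and Clu (0.2517, rank 9) were closest to C3, followed by C1s (rank 19), C1r (rank 36), C2 (rank 143), Serping1 (rank 151) and Cd59 (rank 2772). C4a and C4b were below that level and had RMS differences of 0.26 and 0.30. This order describes 8 libraries in 3 groups and has no test.

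Markers of other cell types were summed by list. The 7 fibroblast or meningeal markers summed to between 61.3 and 65.5 CPM in sh-APP, 66.4 and 95.04 in anti-Abeta, and 75.4 and 86.1 in control. Within that list 2 genes rose (Col1a1 and Pdgfrb) and 2 fell (Col3a1 and Pdgfra) in sh-APP against control. Those shares are near the 25.8% higher and 27.9% lower among all tested genes. The 4 endothelial markers summed to at most 0.429 CPM in sh-APP, 0.660 in anti-Abeta and 0.612 in control, and Cldn5 had no count in any library. Of the 2 tested genes of that list, 1 was called higher in sh-APP against control, beside 25.8% of all tested genes. This was Kdr, with 17, 20 and 10 raw counts in sh-APP against 3 and 0 in control. The other, Tek, went the other way with 0, 0 and 2 counts against 19 and 0. It was not called (log2 fold change -3.89 ± 1.99 (SE), edgeR adjusted p = 0.12). The 7 melanocyte or melanoma markers summed to between 29.7 and 31.3 CPM in sh-APP, 32.2 and 48.02 in anti-Abeta, and 45.2 and 46.9 in control, nearly all from Mitf and Sox10, and Mitf fell in sh-APP against control. The melanoma cells are human and the counts are of rat genes, so the melanocyte or melanoma sum does not measure those cells. The part of the other cell types in the complement results was not tested.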

How the data were processed

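RNA-seq of 8 astrocyte libraries was analysed from a deposited table of raw counts per gene symbol. All deposited counts are whole, and library totals differ. Per the submitters' processing notes, the authors' tools were STAR 2.6.0a, HTSeq 0.11.1, Trimmomatic 0.36, FastQC 0.11.7, DESeq2 1.24.0 and SAMtools 1.9, with build rn6 and no role given. No source used here gives strandedness. Genes passing filterByExpr (minimum count 10, minimum total 15) entered edgeR 4.0.16 (R 4.3.3): TMM factors, a fit over all 8 libraries with group as the only term (5 residual degrees of freedom) and the robust quasi-likelihood test, with Benjamini-Hochberg adjustment over 14445 genes and a threshold of 0.05. SE was taken as log2 fold change over root F, and 95% intervals use the fit's degrees of freedom. Single ratios were compared by exact permutation in SciPy 1.17.1. The fit was checked on simulated data. The members, gene lists and tests were chosen with earlier results of these data known. Named genes are the 9 members, called genes of the pathway and inducing lists (a few uncalled ones are added as context), App and the 5 genes most like C3. Overlaps and promoters come from RefSeq GRCr8, a later build than rn6, which lists 8 members by symbol (Cd59 stands under Cd59b). Itgam, Pecam1, Col1a2 and Cd59b, which the lists name, are not analysed here. Some other genes of the lists are not reported here and were left out of the lists' counts. Alternatives were DESeq2 1.42.0, limma-voom (limma 3.58.1), other scalings and filters, a replicate block, a spread without robust weighting, only the compared groups and leaving out each library.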

Additional observations from a re-analysis of the deposited data

How the results depend on the processing

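The 7 complement genes called in sh-APP against control were called, in the same direction, under all 18 alternatives, as they were against anti-Abeta. C4b passed with library totals alone in sh-APP against control (adjusted p = 0.0472) and, against anti-Abeta, with only the groups compared (0.0404), DESeq2 (0.0446) and limma-voom (0.0448). In anti-Abeta against control 0 of the 9 were called under 17 of the 18 alternatives. With library totals alone 2 were called, C1r (0.39, adjusted p = 0.0222) and Serping1 (0.26, adjusted p = 0.0282), and so were 5 pathway genes. That scaling moved the median log2 fold change of all genes to 0.23 in sh-APP and 0.18 in anti-Abeta against control (main values 0.03 and 0.03). It gave 5174 higher and 3091 lower genes in sh-APP (main 3723 and 4027) and 3590 and 1417 in anti-Abeta (main 1832 and 2391). Upper-quartile factors gave 4337 and 3625 in sh-APP and 2391 and 2047 in anti-Abeta. Between the arms, library totals gave 1923 and 1961 (main 1452 and 2316).

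Leaving out libraries in turn, anti-Abeta against control had 439 to 4775 called genes (main 4223; 439 without control replicate 1, 2431 without control replicate 2, 2594 without anti-Abeta replicate 3) and 1 to 2 called pathway genes (main 2). Between the arms 2233 to 3582 genes were called (main 3768; 2233 without sh-APP replicate 1). The log2 C3 to Serping1 ratio in anti-Abeta against control ran from -0.0838 to 0.1019 (main 0.0091), and Cd59 to C3 from -0.4659 to -0.2489 (main -0.3574). Whether replicate numbers pair the libraries was not settled. Between sh-APP and anti-Abeta, deviations from group means correlated at 0.1051 for replicates 1, 0.0984 for replicates 2 and -0.0056 for replicates 3. Differently numbered libraries of these arms gave -0.1083 to 0.015. With 2 control libraries the control deviations mirror each other, so their correlations cannot show pairing. With the replicate block 7328, 3480 and 3675 genes were called (main 7750, 4223 and 3768), and Cd59 and Clu each missed the threshold in a comparison where they had passed. It left 1 pathway gene called in anti-Abeta against control (main 2) and changed no other count by over 1.5 times. The 2 control libraries limit every comparison with control.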
